A study of Rattus norvegicus with 4 samples.

Results

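The genes that carry glucose and monocarboxylates across membranes were followed in rat oligodendrocyte precursor cells (OPCs) after silencing of the membrane receptor GPR17. The set held 10 genes: the glucose transporters Slc2a1, Slc2a3, Slc2a8 and Slc2a10, the monocarboxylate transporters Slc16a1, Slc16a3, Slc16a6 and Slc16a7, and the chaperone genes Bsg and Emb. They were chosen by name, and each non-control probe whose RefSeq transcript belonged to one of them was taken. The 10 genes had 11 probes, out of 16568 genes and 45565 probes measured. Of these, 9 genes with 10 probes were bright enough to be tested, beside 11656 genes and 28016 probes in the whole series.

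The cells were OPCs isolated from the pooled cortices of Sprague-Dawley rats at postnatal day 2 and grown for 3 days with bFGF and PDGF. They were then moved to differentiating medium with the thyroid hormone T3 and transfected by lipofection with 50 nM of a siRNA pool directed at Gpr17 (siGPR17) or of a control RNA pool without a target (siNEG), and lysed 48 h later, at 2 days of maturation in vitro. Every sample therefore carried the transfection reagent and the same medium, and the RNA introduced was the stated difference. Each group had 2 samples, with 1 one-color Agilent array for each of the 4. The 2 samples of a group are described as independent, but not whether they came from separate cultures, so the p-values measure only the spread between these samples.

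Glucose enters cells through carriers of the GLUT family, encoded by Slc2a genes, along its own concentration gradient. Lactate, pyruvate and ketone bodies cross together with a proton through MCT1 to MCT4 of the MCT family, which is encoded by Slc16a genes. MCT1 to MCT4 reach the plasma membrane together with a chaperone of the immunoglobulin superfamily, basigin (Bsg) or embigin (Emb). In brain, oligodendrocytes are known to take up glucose through GLUT1 and to exchange lactate with axons through MCT1.

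The brightness of a spot, in intensity units, was taken after background correction by the scanner software and scaled to the 75th percentile of its array. The probes bright enough to stand well above background numbered 26997 to 28244 per array, and saturation was absent outside the controls. Gpr17 itself had signals of 1107 and 1113 in siNEG OPCs and of 652.3 and 639.4 after silencing, which is -0.78 on the log2 scale (SE 0.085, limma, adjusted p = 0.209). The knockdown was therefore visible on every array, and it was partial at the RNA level. The markers Pdgfra, Cspg4, Sox10, Olig1, Olig2, Ptprz1 and Bcan of precursors and Mbp, Mog, Mag, Cnp, Mobp and Myrf of oligodendrocytes stood above background on all arrays. The oligodendrocyte marker Opalin did so on 1 siNEG array only. All 4 arrays lay on 1 slide and in 1 scan, with the siNEG arrays in 1 column of the slide and the siGPR17 arrays in another, so that column and treatment cannot be told apart. In cultures measured in bulk, fewer cells of a type and less RNA per cell cannot be told apart either.

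No transporter or chaperone gene passed both thresholds of the study, 1.5 for the fold and 0.07 for the adjusted p. This was 0 of 9 genes against a background of 0.0% of genes and 0.00357% of probes, which is 1 of 28016 probes. By the methods' t-test the count was also 0. Over all genes, the paper reported many more differing genes at these thresholds, and why the counts differ was not tested. At an unadjusted p below 0.05, 3 of the 9 genes differed between groups in limma, with Slc16a3 and Slc2a1 higher in siGPR17 OPCs and Slc16a7 lower. That is 33.33% of the members beside 16.2% of all tested genes. Values are therefore given below as measured differences, with their intervals, and none of them as an established change. An exact permutation test of 2 against 2 arrays cannot give a two-sided p below 0.333.

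The upstream sequences of the genes with the 2 highest and the 2 lowest differences are shown first, as reference sequence that goes with the values. Each is the 250 bases just before the annotated start in RefSeq on the build GRCr8, written 5′ to 3′ on the strand of the gene, and a promoter entry was found for 7 of the 10 genes. Capitals mark ACGTG, a form of the core letters bound by hypoxia-inducible factors, and GGGCGG, the GC box. Other forms of that core were not searched and are not marked. Both motifs were searched on both strands, where CACGT and CCGCCC are the same motifs read on the other strand. The stretches were Slc16a3 at chr10:106712078-106712327 (plus strand), Slc2a1 at chr5:138002272-138002521 (plus strand), Slc16a7 at chr7:63040399-63040648 (minus strand) and Slc2a8 at chr3:36682135-36682384 (minus strand).
Slc16a3: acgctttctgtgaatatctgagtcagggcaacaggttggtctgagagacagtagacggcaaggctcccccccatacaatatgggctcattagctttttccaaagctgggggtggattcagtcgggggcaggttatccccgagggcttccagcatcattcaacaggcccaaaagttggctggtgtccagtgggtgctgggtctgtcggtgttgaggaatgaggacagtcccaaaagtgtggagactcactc
Slc2a1: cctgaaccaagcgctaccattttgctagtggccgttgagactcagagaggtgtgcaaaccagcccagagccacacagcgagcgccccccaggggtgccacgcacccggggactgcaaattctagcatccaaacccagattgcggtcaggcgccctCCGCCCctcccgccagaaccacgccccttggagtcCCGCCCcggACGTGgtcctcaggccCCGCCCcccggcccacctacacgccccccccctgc
Slc16a7: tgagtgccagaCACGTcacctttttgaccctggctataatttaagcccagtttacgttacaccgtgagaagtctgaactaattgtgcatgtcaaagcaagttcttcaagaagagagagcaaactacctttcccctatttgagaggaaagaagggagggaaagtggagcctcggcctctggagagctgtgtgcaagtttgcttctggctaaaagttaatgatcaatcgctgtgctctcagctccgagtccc
Slc2a8: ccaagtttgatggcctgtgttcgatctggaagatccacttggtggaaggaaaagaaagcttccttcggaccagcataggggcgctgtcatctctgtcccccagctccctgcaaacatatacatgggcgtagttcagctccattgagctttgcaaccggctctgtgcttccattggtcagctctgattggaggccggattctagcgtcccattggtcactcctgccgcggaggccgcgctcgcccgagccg

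The window of Slc2a1 held 1 ACGTG match, whose first base lay 51 bases before the start, and 3 GGGCGG matches, at 95, 60 and 35 bases. The window of Slc16a7 held 1 ACGTG match at 239 bases and no GC box, and those of Slc16a3 and Slc2a8 held neither. ACGTG stood in 4 of the 7 windows (Slc16a1, Slc16a7, Slc2a1 and Bsg), beside 16.57% of 33469 windows of the same length, and GGGCGG in 4 of the 7 (Slc16a1, Slc2a1, Bsg and Emb), beside 30.47% of them. In Slc16a1 and in Bsg, the palindrome CACGTG gave overlapping ACGTG matches on both strands. The windows were short, and those shown were picked by the differences of their genes. Whether a match goes with the direction of a difference was not tested. A match of letters is a description of the window and not a site.

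Among the glucose transporters, Slc2a1 was higher and the other tested members were lower in siGPR17 OPCs. Slc2a1 encodes GLUT1, the carrier of basal glucose uptake in glia and at the blood-brain barrier. Its probe gave 6048 and 7002 intensity units in siNEG OPCs and 8786 and 8254 in siGPR17 OPCs, which is 6525 ± 675 against 8520 ± 376 (SD, n = 2). The signals of siGPR17 OPCs exceeded those of siNEG OPCs on every array, by at least 0.24 on the log2 scale. This came to a log2 fold change of 0.39 (SE 0.12, 95% interval 0.07 to 0.70, adjusted p = 0.260 in limma), or 1.31-fold. Across all tested genes, 5.95% had a larger rise.

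Slc2a3 encodes GLUT3, the high-affinity carrier best known from neurons. Its brighter probe, printed at 10 places on the array, gave 716.7 and 809.3 units in siNEG OPCs and 675.6 and 670.4 in siGPR17 OPCs (763.0 ± 65.5 against 673.0 ± 3.70, SD, n = 2). The siGPR17 arrays lay below the siNEG arrays, the nearest pair by 0.085 on the log2 scale. The resulting log2 fold change was -0.18 (SE 0.10, 95% interval -0.46 to 0.11, adjusted p = 0.443, limma), and the interval spans 0. It was -0.09 with siNEG replicate 2 left out, -0.27 with siNEG replicate 1 left out and -0.05 on spike-in scaling. All 10 places on the array gave a lower mean in siGPR17 OPCs, between -0.26 and -0.07 on the log2 scale with a median of -0.19, and at 9 places the groups did not overlap. These places measure the same 4 RNA samples and are not replicates.

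The second Slc2a3 probe was dimmer, at 44.6 and 30.7 units in siNEG OPCs and 31.8 and 34.6 in siGPR17 OPCs, and here the groups overlapped. Its log2 fold change was -0.16 (SE 0.21, 95% interval -0.73 to 0.41, adjusted p = 0.726, limma), with the same sign as the brighter probe. Of the neuronal markers, 8 of 8 tested genes had lower mean signals in siGPR17 OPCs, while Slc17a6 and Slc17a7 were too dim to test. In 6 of the 8 the groups did not overlap, beside 25.3% of all tested genes that were lower in this way. The arrays of Tubb3 and Syt1 overlapped. The summed signal was 7086 to 8381 in siNEG and 6605 to 6863 in siGPR17 OPCs. Most of the sum came from Map2, with means of 4386 in siNEG and 3857 in siGPR17 OPCs, and Tubb3, with 2064 and 1774. The part of neuronal RNA in the Slc2a3 values was not tested.

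Slc2a8 encodes GLUT8, a carrier held mostly in intracellular membranes. It had 4802 and 6193 units in siNEG OPCs and 4351 and 4280 in siGPR17 OPCs (5498 ± 983 against 4315 ± 50.5, SD, n = 2). Both siGPR17 arrays were lower, but the siNEG arrays differed from each other by more than the lower of them differed from the siGPR17 arrays. Between groups the log2 fold change was -0.34 (SE 0.15, 95% interval -0.76 to 0.08, adjusted p = 0.356, limma). Leaving out siNEG replicate 1 gave -0.52 and leaving out siNEG replicate 2 gave -0.15, so the size rests on which control is used. Slc2a10, which encodes GLUT10, a carrier of vascular and connective tissue cells, stayed at background on every array, at 3.37 to 3.77 units, and was not tested.

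Set against one another on the same arrays, which takes out any scaling between arrays, Slc2a1 stood 0.57 higher relative to Slc2a3 in siGPR17 than in siNEG OPCs on the log2 scale. This ratio varied little between replicates, with an SD of 0.03 in siNEG and 0.06 in siGPR17 OPCs. Relative to Slc2a8 the same difference was 0.73, with SDs of 0.11 and 0.05. For these 2 pairs of genes, the ratio on either siGPR17 array exceeded that on either siNEG array. This had to be so, since Slc2a1 was higher and the other gene lower on both siGPR17 arrays. It is a description with no test and adds no support to the single values.

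**Figure D1:**
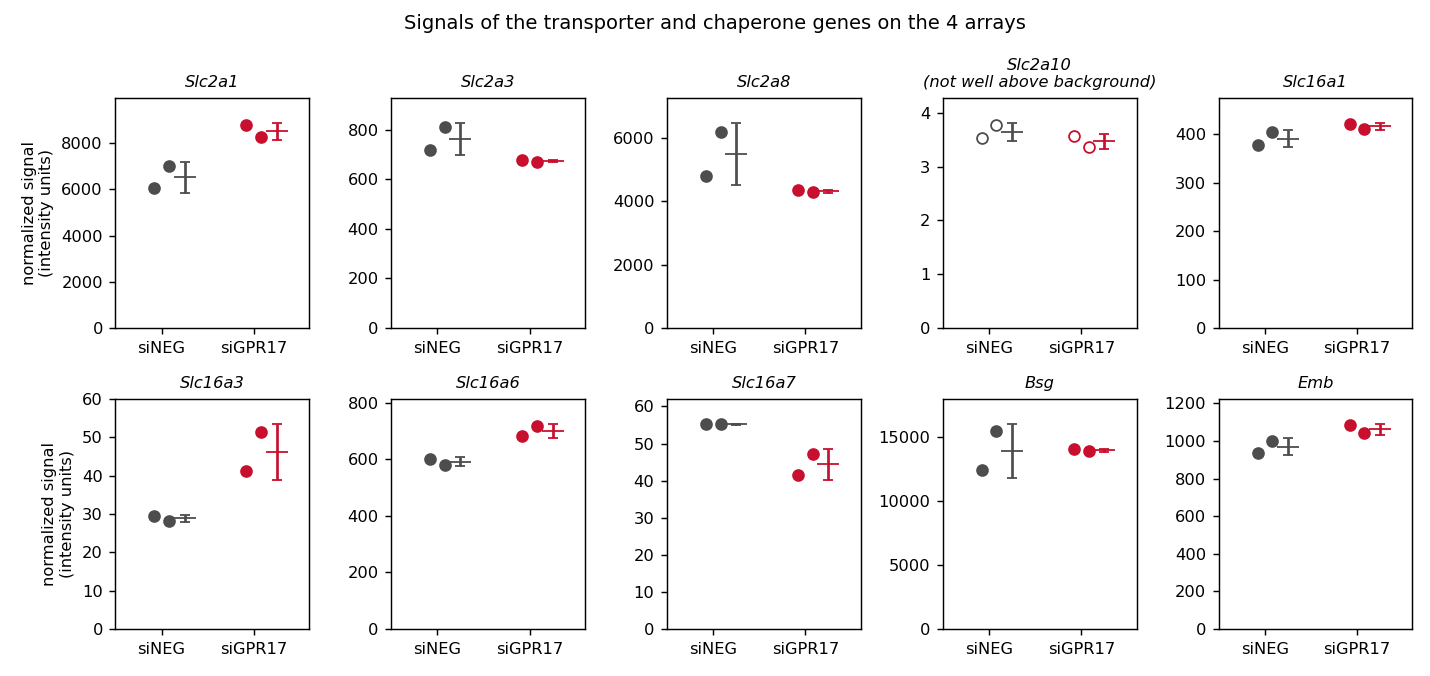
Normalized signal in intensity units of the 10 genes on each of the 4 arrays, with siNEG in grey and siGPR17 in red. Points are arrays, the line with bars beside them is the mean with its SD (n = 2), and open points mark a probe not well above background. For Slc16a3 and Slc2a1 both siGPR17 arrays lie above both siNEG arrays, for Slc16a7 and Slc2a8 below them, and for Bsg the siGPR17 arrays fall between the siNEG arrays.

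The monocarboxylate transporters did not move together: Slc16a3 was higher, Slc16a7 lower, and Slc16a1 differed little. Slc16a3 encodes MCT4, the low-affinity carrier of cells that export lactate. Its signals were low, 29.5 and 28.3 units in siNEG OPCs and 41.1 and 51.5 in siGPR17 OPCs (28.9 ± 0.851 against 46.3 ± 7.33, SD, n = 2), and well above background on every array. The groups were apart by at least 0.48 on the log2 scale, and the siGPR17 arrays differed from each other by 0.32.

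On the log2 scale Slc16a3 was higher by 0.67 (SE 0.14, 95% interval 0.28 to 1.06, adjusted p = 0.214 in limma), or 1.59-fold. It was the one member past a fold of 1.5, 11.11% of the members beside 5.08% of all tested genes (2.43% higher and 2.65% lower), and 1.65% of all tested genes had a larger rise. Its probe was printed at 10 places, and at each of them both siGPR17 arrays were above both siNEG arrays, by a mean of 0.29 to 0.92 with a median of 0.71 on the log2 scale. On the 2 siNEG arrays 9 of the 10 spots were well above background, and on the 2 siGPR17 arrays 10 of 10. With normexp background correction, which adds an offset of 50 units and so draws dim probes together, the log2 fold change was 0.28.

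**Figure D2:**
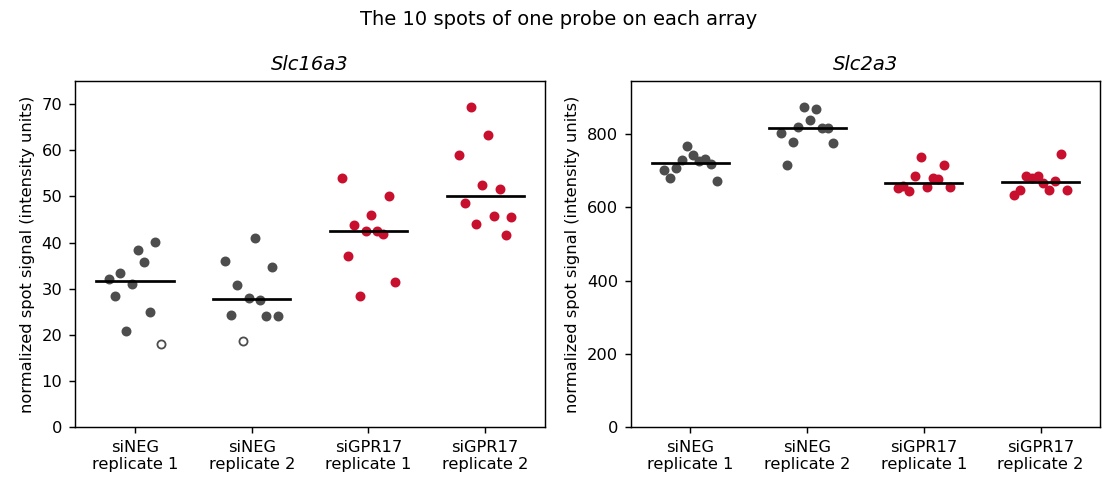
Normalized signal in intensity units of the 10 spots that carry the Slc16a3 probe (left) and the brighter Slc2a3 probe (right) on each array. The line is the median of the spots and open points are spots not well above background. The Slc16a3 spots are higher on the siGPR17 arrays, and the Slc2a3 spots are slightly lower there.

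Slc16a7 encodes MCT2, the high-affinity carrier best known for lactate uptake by neurons. It had 55.4 and 55.2 units in siNEG OPCs and 41.5 and 47.3 in siGPR17 OPCs (55.3 ± 0.137 against 44.4 ± 4.09, SD, n = 2). Both siGPR17 arrays were lower, by at least 0.22 on the log2 scale. Its log2 fold change was -0.32 (SE 0.11, 95% interval -0.61 to -0.03, adjusted p = 0.279 in limma). It was -0.09 with normexp and -0.19 on spike-in scaling, both with an unadjusted p above 0.05 in limma. The unadjusted p was also above 0.05 in limma with no filter (0.0562), with trend and robust settings (0.142) and with the replicate block (0.0724). By the methods' t-test it was 0.0771. As for Slc2a3, the neuronal markers had lower means on the same arrays, and their part in this value was not tested.

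Slc16a1 encodes MCT1, the lactate carrier for which oligodendrocytes are best known. Its signals were 378.6 and 404.1 in siNEG OPCs and 422.3 and 412.1 in siGPR17 OPCs (391.4 ± 18.0 against 417.2 ± 7.27, SD, n = 2). The groups did not overlap, but the nearest arrays differed by only 0.03 on the log2 scale, less than the siNEG arrays differed from each other. This gave a log2 fold change of 0.09 (SE 0.09, 95% interval -0.16 to 0.34, adjusted p = 0.633, limma), an interval that reaches from a fall to a rise. It was 0.046 with siNEG replicate 1 left out, 0.14 with siNEG replicate 2 left out and 0.22 on spike-in scaling. The oligodendrocyte marker Opalin was too dim to test, at 11.8 and 19.1 units in siNEG and 8.0 and 3.2 in siGPR17 OPCs. Of 6 tested oligodendrocyte markers 2 were higher and 4 lower, from -0.67 for Mog to 0.32 for Mbp on the log2 scale. Their summed signals overlapped, at 304989 to 362702 in siNEG and 362049 to 380341 in siGPR17 OPCs. Most of the sum came from Mbp, at 197178 and 227699 in siNEG and 256521 and 272873 in siGPR17 OPCs. All 7 tested precursor markers had lower means, with sums of 364666 to 452009 in siNEG and of 354430 to 357395 in siGPR17 OPCs. In 5 of the 7 the groups did not overlap, beside 25.3% of all tested genes that were lower in this way. The arrays of Sox10 and Olig1 overlapped. The median log2 fold change of the 7 was -0.23, and -0.036 with siNEG replicate 2 left out, so its size rests on that control. The part of cell stage in the Slc16a1 value was not tested. Relative to Slc16a1 on the same arrays, Slc16a3 was 0.58 higher on the log2 scale in siGPR17 than in siNEG OPCs, with SDs of this ratio of 0.11 in siNEG and 0.25 in siGPR17 OPCs. Relative to Slc16a7 it was 0.99 higher, with SDs of 0.04 and 0.10.

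Slc16a6 encodes MCT7, described as a carrier of ketone bodies. It had 603.1 and 581.6 units in siNEG OPCs and 683.4 and 719.7 in siGPR17 OPCs (592.4 ± 15.2 against 701.6 ± 25.7, SD, n = 2). The groups were apart by at least 0.18 on the log2 scale, and the siGPR17 arrays were the higher. The log2 fold change was 0.24 (SE 0.09, 95% interval -0.0016 to 0.49, unadjusted p = 0.0509, adjusted p = 0.301 in limma). The unadjusted p in limma was below 0.05 with normexp (0.0196), quantile normalization (0.0404), spike-in scaling (0.0415), the filter on all 4 arrays (0.0447) and trend and robust settings (0.0215). By the methods' t-test it was 0.0332. In limma it was above 0.05 with median scaling (0.0516), no filter (0.0711) and the replicate block (0.121).

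The chaperones differed little. Bsg, the partner of MCT1 and MCT4, gave 12444 and 15447 units in siNEG OPCs and 14073 and 13884 in siGPR17 OPCs, and both siGPR17 arrays lay between the siNEG arrays. The log2 fold change was 0.01 (SE 0.14, 95% interval -0.36 to 0.39, adjusted p = 0.974, limma), and its sign turned with quantile normalization and without siNEG replicate 1. Emb, the partner of MCT2, gave 937.5 and 1000.5 units in siNEG OPCs and 1084 and 1042 in siGPR17 OPCs (969.0 ± 44.5 against 1063 ± 29.7, SD, n = 2). Its groups did not overlap, the nearest pair being 0.06 apart on the log2 scale, and the log2 fold change was 0.13 (SE 0.09, 95% interval -0.12 to 0.39, adjusted p = 0.502, limma). It was 0.088 with siNEG replicate 1 left out and 0.26 on spike-in scaling. MCT2 and its partner thus had differences of opposite sign.

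**Figure D3:**
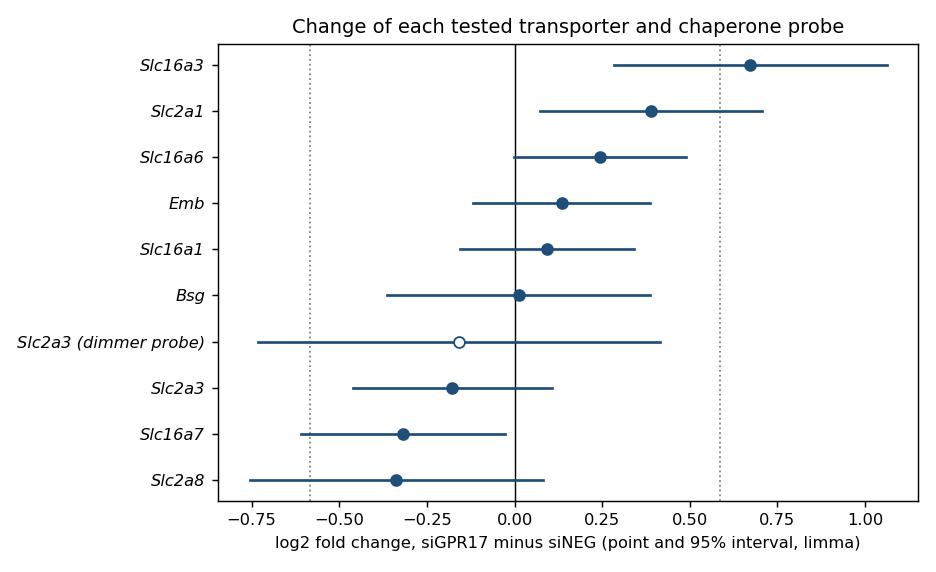
Log2 fold change of each of the 10 tested probes, siGPR17 minus siNEG, as a point with its 95% interval from limma. The open point is the dimmer Slc2a3 probe, and dotted lines mark a fold change of 1.5 in either direction. The intervals of Slc16a3 and Slc2a1 lie above 0, that of Slc16a7 lies below 0, and all others span 0.

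Over the 9 tested genes, 6 were higher and 3 lower in siGPR17 OPCs, or 66.67% higher beside 52.0% of all tested genes. The median log2 fold change was 0.09, beside 0.01 over all tested genes. In 8 of the 9, or 88.89%, the groups were separate on all arrays, with 5 higher and 3 lower, beside 53.4% of all tested genes (28.1% higher and 25.3% lower). Bsg was the exception. Scaling on the spike-in controls in place of the 75th percentile raised every log2 fold change by 0.13 and kept the sign of all 9, so that the rises became larger and the falls smaller.

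**Figure D4:**
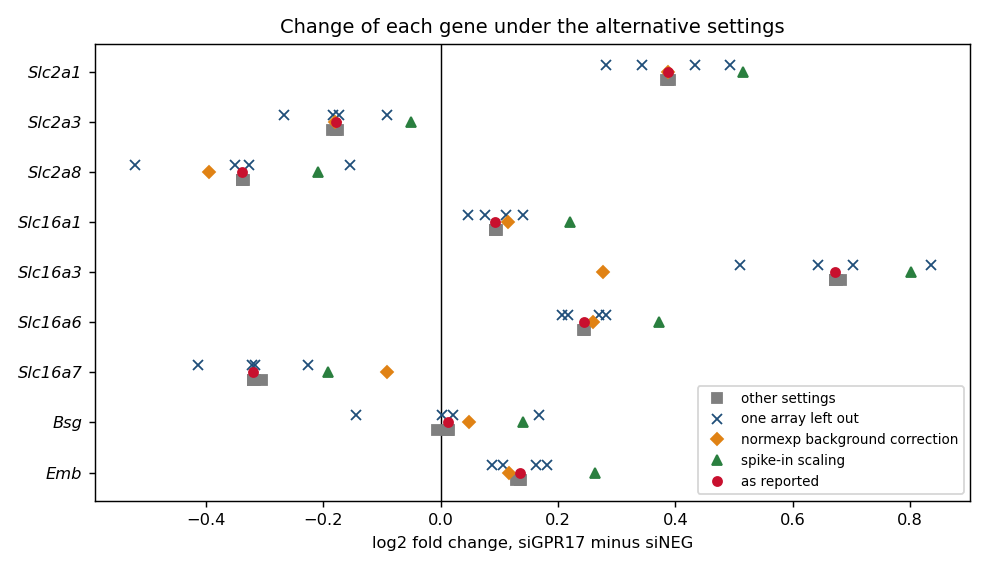
Log2 fold change of each of the 9 tested genes, siGPR17 minus siNEG, as reported (red) and under the other settings. Spike-in scaling (green) moves all genes by the same 0.13, normexp (orange) draws the dim Slc16a3 and Slc16a7 toward 0, and leaving out 1 array (crosses) spreads Slc2a8 from -0.52 to -0.15 and Bsg to both sides of 0.

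The genes whose pattern over the 4 arrays was most like that of Slc16a1 were Trappc2l, Ociad1, Dynll2, Prkab2 and Aaas, at Euclidean distances of 0.0096 to 0.012 between centred log2 values. Those most like Slc2a1 were Tppp3, Mob1a, Ift70a1, Tanc1 and Tusc2, at distances of 0.016 to 0.054. With 4 arrays these distances describe little more than the size of the difference between groups.

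Of the other members of the GLUT family, 7 of 8 listed genes had a probe and 5 were tested. Of these, 2 were higher and 3 lower, and their median difference was -0.16 on the log2 scale. Among the higher ones, Slc2a2 passed the filter on dim probes only through siGPR17 OPCs. With the filter on all 4 arrays, which leaves it out, the median of the 4 genes left was -0.23. Slc2a5, the fructose carrier GLUT5, which microglia express in brain, was lower, at 177.2 and 265.1 units in siNEG OPCs and 113.0 and 83.5 in siGPR17 OPCs (log2 fold change -1.16, SE 0.27, adjusted p = 0.218 in limma). Among microglial markers, 6 of 7 tested genes were lower and 1 higher. Aif1 (log2 fold change -0.56) and P2ry12 (-0.32) were lower without overlap, as were 25.3% of all tested genes, and the other markers overlapped. The summed signals, 2547 to 3785 in siNEG and 2545 to 3012 in siGPR17 OPCs, overlapped too. Most of the sum came from Cx3cr1, which had 2512 and 1241 units in siNEG and 1338 and 1884 in siGPR17 OPCs. The part of microglial RNA in the Slc2a5 value was not tested.

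Slc2a2, the low-affinity carrier of liver and pancreatic beta cells, had 15.8 and 16.5 units in siNEG OPCs, not well above background on either array, and 21.6 and 29.9 units in siGPR17 OPCs. It entered the test only through the siGPR17 arrays, where it was the brighter, so its direction is not independent of that filter. In the text its difference is therefore given as signals alone. Slc2a6, which encodes GLUT6, and Slc2a12, which encodes GLUT12, had log2 fold changes of -0.31 and -0.16, and Slc2a13, a carrier of myo-inositol, had 0.24, with all 3 above an unadjusted p of 0.05. Slc2a4, the insulin-responsive carrier, and Slc2a9, a urate carrier, were too dim to test.

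Of the other members of the MCT family, 8 of 9 listed genes had a probe and 3 were tested. All 3 had lower means, with arrays that overlapped between the groups, and their median difference was -0.11 on the log2 scale. Slc16a8 encodes MCT3, a lactate carrier of the retinal pigment epithelium, and had a log2 fold change of -0.11. The orphan carriers Slc16a13 and Slc16a14 had -0.0050 and -0.15. None had an unadjusted p below 0.05, and Slc16a4, Slc16a5, Slc16a10, Slc16a11 and Slc16a12 were too dim to test.

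Among proteins that act beside these carriers, 6 of 10 listed genes were tested, of which 2 were higher and 4 lower, and their median difference was -0.03 on the log2 scale. Txnip encodes an arrestin-like protein that binds thioredoxin and removes GLUT1 from the cell surface. It had 191.9 and 139.8 units in siNEG OPCs and 291.9 and 325.6 in siGPR17 OPCs. The groups were clearly apart, with a log2 fold change of 0.91 (SE 0.19, adjusted p = 0.212 in limma). Txnip and Slc2a1 were therefore higher on the same arrays. Slc5a2, a sodium-coupled glucose carrier, had the lowest value of the list, -0.37, with overlapping arrays. Mpc1 and Mpc2, which form the mitochondrial pyruvate carrier, had log2 fold changes of -0.06 and -0.0049, and the lactate receptor gene Hcar1 was at background on every array.

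The enzymes between the carriers, from glucose to lactate, were all tested. Of 18 listed genes 13 were higher and 5 lower after silencing, and the median of their log2 fold changes was 0.41. At an unadjusted p below 0.05, 12 were higher, or 66.67% beside 7.43% of all tested genes, and 1 was lower, beside 8.73% of them. The higher ones were Hk2, Gpi, Pfkl, Aldoa, Tpi1, Pgk1, Pgam1, Eno1, Eno2, Pkm, Ldha and Pdk1, led by Pfkl at 0.79, and the lower one was Pfkm at -0.34. Ldha, which makes lactate, had a log2 fold change of 0.46, and Ldhb had -0.0089. None passed the adjusted threshold in limma.

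Slc2a1 is also the glucose carrier of brain endothelium. Of 9 endothelial markers 4 were tested, and all 4 (Cdh5, Kdr, Tek and Vwf) were higher in siGPR17 OPCs, with a summed signal of 1075 to 1175 in siNEG and 1558 to 1644 in siGPR17 OPCs. The defining markers Pecam1, Cldn5, Abcb1a and Emcn were not well above background on any array, and Flt1 was so on 1. Of 7 astrocyte markers 3 were higher and 4 lower, with sums of 9843 to 10726 in siNEG and of 9402 to 9413 in siGPR17 OPCs. Most of the sum came from Slc1a3. The 4 lower ones, with Aqp4 at -1.35 and Gfap at -0.61 on the log2 scale, did not overlap between groups, beside 25.3% of all tested genes. Of the 3 higher ones, S100b (0.50) did not overlap, beside 28.1% of all tested genes, and Aldh1l1 and Gja1 did. The part of these cells in the values of Slc2a1 and of the monocarboxylate carriers was not tested.

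**Figure D5:**
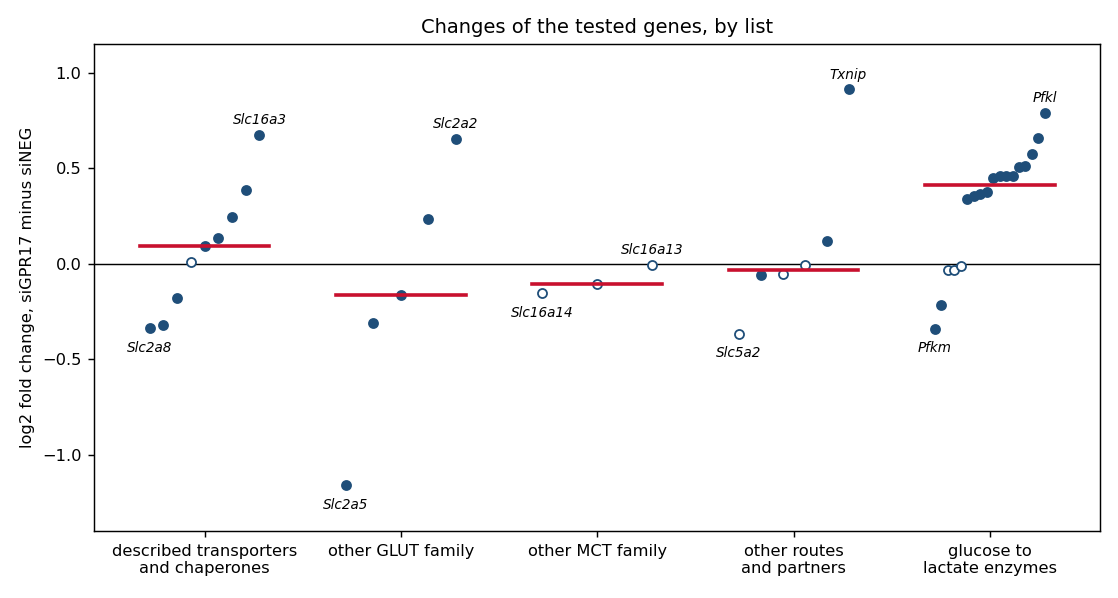
Log2 fold change of each tested gene, siGPR17 minus siNEG, in 5 lists, with the genes of each list ordered by value. The line is the median of the list, filled points are genes whose groups do not overlap and open points are genes whose arrays overlap. The glucose to lactate enzymes have their median at 0.41, and the transporter lists have theirs between -0.16 and 0.09. The highest point of the other GLUT family is Slc2a2, which entered the test only through the siGPR17 arrays, so its direction is not independent of the filter.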

How the data were processed

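Gene expression was measured on 4 Agilent arrays for rat, hybridized in 1 color, with 2 of siNEG and 2 of siGPR17 OPCs. Groups and replicate numbers came from the sample labels. The authors deposited the intensity of each spot as Agilent Feature Extraction 10.7.3.1 gave it: background-corrected processed intensity, not normalized between arrays, beside spot and background medians and flags. Genes were named from the transcript accessions of the probes, matched without versions to a RefSeq table of GRCr8, and this named 21093 of 45565 probes.

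Controls and flagged outliers were removed, and the spots of a probe were averaged. The log2 of the deposited intensity minus the 75th percentile of each array was tested in R 4.3.3 by limma 3.58.1 (lmFit, eBayes), with Benjamini-Hochberg adjustment over the 28016 probes well above background on at least 2 arrays in any group. Linear signals are the normalized values times 1 common factor. The brightest tested probe stood for a gene. The depth of an array has no counts, and the number of arrays limits the precision. The code was tested on simulated data.

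Named were all members, Gpr17, of each list of other carriers, partners and enzymes the genes with an unadjusted p under 0.05 and the largest rise and fall, and the 5 genes nearest to Slc16a1 and to Slc2a1. Values of further list genes are given for completeness and were chosen after they were seen. The members, lists, motifs and alternatives were chosen with earlier results of these data known, so they support no pattern independently.

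Alternatives were normexp (offset 50, on spot medians, since spot means were not used here), quantile, median and spike-in scaling (8 probes), 2 other filters, trend and robust eBayes, the t-test of the methods, a replicate block and leaving out each array. Some genes of the lists are not reported here, and their lists are counted without them. Other measurements of the study were not analysed here.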

Additional observations from a re-analysis of the deposited data

How the results depend on the processing

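The count of transporter and chaperone genes past the thresholds was 0 under every alternative tried. The count of genes at an unadjusted p below 0.05, 3 of 9, was 1 with the methods' t-test, where that gene was Slc16a6, and between 1 and 3 when 1 array was left out. When either siGPR17 array was left out, the 1 gene was Slc16a3. Apart from the replicate block, given below, the other settings gave 2 to 4. These were not always the same genes: Slc16a7 was not among them with normexp, spike-in scaling, no filter, or trend and robust eBayes. Slc16a6 was among them with normexp, quantile normalization, spike-in scaling, the filter on all 4 arrays, and trend and robust eBayes. With an array left out, 1 group holds a single sample, which is assumed to vary like the other group, so these p-values rest on the spread of that group alone. The number of higher genes stayed at 6, or 5 with quantile normalization and without siNEG replicate 1, where Bsg turned to -0.0068 and -0.14. The median log2 fold change, 0.09, was 0.22 with spike-in scaling and 0.046 to 0.17 with 1 array left out (0.046 without siNEG replicate 1, 0.17 without siNEG replicate 2). Over all probes, the count past the thresholds, 1 in limma, was 242 with normexp, 420 with eBayes fitted with trend and robust settings, and 0 with spike-in scaling, with no filter, with the filter on all 4 arrays, with the methods' t-test, with the replicate block and with any array left out. The cause was not tested. Of the values of single genes under the alternatives, 116 kept their direction and their side of the threshold and 2 reversed, both of Bsg. Adjusted p-values ranged from 0.152 to 0.665 for Slc16a3 and from 0.0864 to 0.750 for Slc2a1.

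The replicate numbers of the labels were shared by the groups, but with 2 pairs they were not shown to pair the samples: deviations of same-numbered arrays correlated at -0.07 across probes. With the replicate number as a block, 1 gene (Slc16a3) had an unadjusted p below 0.05 in place of 3, and 0 probes passed the thresholds.

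Dim probes limit the reading of Slc16a3, Slc16a7 and the second Slc2a3 probe, whose signals of 28.3 to 55.4 units lie far below the 75th percentile of the arrays, at 564.9 to 624.1 units.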
